A study of Mus musculus with 4 samples.

Results

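The mitochondrial carrier family, SLC25, is a family of transporters found mostly in the inner mitochondrial membrane. Ucp2, the gene deleted in the study analysed here, belongs to it. The members were chosen by name: all protein-coding genes listed as Slc25a followed by a number, together with Ucp2 and Ucp3. This gave 45 genes of the 20194 listed in the deposited tables. All 45 were listed at embryonic day 15 (E15) and 44 at embryonic day 18 (E18), where Ucp3 was the gene not listed.

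The study sequenced RNA of brain endothelial cells, the cells that line blood vessels, from mouse embryos of strain C57BL/6. The 4 groups were UCP2f/f;Tie2-cre embryos at E18 and wild-type (WT) embryos at E18, and UCP2f/f;Tie2-cre embryos at E15 and WT embryos at E15. In the UCP2f/f;Tie2-cre embryos, called KO below, a floxed Ucp2 gene meets Cre recombinase driven by the Tie2 promoter, which is active in endothelial cells and also in many blood cells. The sources used here do not say whether the WT embryos carried a floxed allele or Cre, nor how the cells were isolated. Each group is represented here by 1 library, although the series' design text speaks of triplicates, so no comparison between a pair of libraries has a replicate check and a difference describes these libraries. The library totals were 21992660 reads in KO and 19075407 in WT at E18, and 16328300 reads in KO and 15542930 in WT at E15.

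Mitochondrial carriers exchange nucleotides, phosphate, organic acids, amino acids, cofactors and metals between the mitochondrial matrix and the cytosol, and each is built from repeats of one carrier domain. UCP2, uncoupling protein 2, is known for moving protons and organic acids across the inner membrane and for restraining the production of reactive oxygen species, and it responds to the fuel a cell burns. Brain endothelial cells are known for relying heavily on glycolysis, while their mitochondria serve biosynthesis and signalling.

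The annotation of the members fitted their shared name with 1 exception. The Pfam carrier domain (Mito_carr) was listed for 44 of 45 members, and a mitochondrial gene ontology term for 45 of 45. The exception, Slc25a35, was annotated with another domain. It shares 31.3% of its exon bases with Rangrf on the opposite strand, so its reads are uncertain: no source used here says whether reads were assigned by strand. In the GENCODE M21 annotation the longest coding sequence of the members ranged between 795 and 2031 bases with a median of 954, and 38 of 45 lay between 800 and 1100 bases. The members were spread over 18 chromosomes. Ucp3 and Ucp2 lie next to each other on the plus strand of chromosome 7, 6904 bases apart, and Slc25a43 and Slc25a5 are 18448 bases apart on chromosome X. In all, 14 members share exon bases with another annotated gene, among them Ucp2, which shares 305 bases (4.36% of its exon bases) with Dnajb13. Dnajb13 had 4 reads in KO and 39 in WT at E18, and 33 reads in KO and 48 in WT at E15, far fewer than Ucp2.

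The promoters of 6 members are shown because the results turn on these genes: the targeted gene Ucp2, the 3 carriers of citrate, dicarboxylates and oxo acids, and Slc25a42 and Slc25a38, which lay on opposite sides of the stage comparison. Each sequence runs 5′ to 3′ on the gene's own strand and covers 250 bases before and 50 bases after the annotated start, taken from RefSeq on GRCm38.p6. Capitals mark every match, on either strand, to 6 motifs: the GC box GGGCGG, the CCAAT box CCAAT, the estrogen-related receptor element AAGGTCA, the E box CACGTG, the NRF1 core TGCGCA and the ETS site CCGGAAG. The positions are chr7:100493108-100493407 (plus strand) for Ucp2, chr16:17928170-17928469 (minus strand) for Slc25a1, chr11:120491587-120491886 (plus strand) for Slc25a10, chr11:70646990-70647289 (minus strand) for Slc25a11, chr8:70212232-70212531 (minus strand) for Slc25a42 and chr9:120110132-120110431 (plus strand) for Slc25a38.
Ucp2: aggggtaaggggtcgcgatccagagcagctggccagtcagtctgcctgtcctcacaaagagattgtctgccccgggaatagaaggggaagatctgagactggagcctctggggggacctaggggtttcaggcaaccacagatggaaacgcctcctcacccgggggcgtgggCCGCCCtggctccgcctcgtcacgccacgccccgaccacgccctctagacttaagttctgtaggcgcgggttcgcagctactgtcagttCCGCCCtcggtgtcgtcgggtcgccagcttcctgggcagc
Slc25a1: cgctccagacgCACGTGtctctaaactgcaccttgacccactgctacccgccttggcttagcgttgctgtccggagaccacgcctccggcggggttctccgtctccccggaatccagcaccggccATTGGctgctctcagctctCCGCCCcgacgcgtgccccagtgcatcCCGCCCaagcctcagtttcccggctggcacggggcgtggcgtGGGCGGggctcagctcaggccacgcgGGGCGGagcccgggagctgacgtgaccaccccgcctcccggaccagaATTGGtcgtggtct
Slc25a10: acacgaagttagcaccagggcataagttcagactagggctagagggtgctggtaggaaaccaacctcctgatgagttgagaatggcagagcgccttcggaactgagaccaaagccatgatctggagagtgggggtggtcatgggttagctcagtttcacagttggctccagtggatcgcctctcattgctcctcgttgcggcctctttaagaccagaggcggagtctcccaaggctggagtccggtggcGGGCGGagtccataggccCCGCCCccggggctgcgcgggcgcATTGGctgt
Slc25a11: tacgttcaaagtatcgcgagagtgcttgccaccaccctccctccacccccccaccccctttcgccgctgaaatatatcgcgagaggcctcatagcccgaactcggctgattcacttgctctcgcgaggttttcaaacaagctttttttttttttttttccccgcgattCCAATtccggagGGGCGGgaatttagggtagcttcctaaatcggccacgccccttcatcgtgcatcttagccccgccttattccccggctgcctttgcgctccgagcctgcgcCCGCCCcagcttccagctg
Slc25a42: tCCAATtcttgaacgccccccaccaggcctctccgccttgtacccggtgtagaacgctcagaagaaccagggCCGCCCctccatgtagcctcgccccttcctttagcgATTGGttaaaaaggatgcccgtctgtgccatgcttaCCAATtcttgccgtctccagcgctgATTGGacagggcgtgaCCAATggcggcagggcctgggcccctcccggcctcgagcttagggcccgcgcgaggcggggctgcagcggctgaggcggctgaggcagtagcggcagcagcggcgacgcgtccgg
Slc25a38: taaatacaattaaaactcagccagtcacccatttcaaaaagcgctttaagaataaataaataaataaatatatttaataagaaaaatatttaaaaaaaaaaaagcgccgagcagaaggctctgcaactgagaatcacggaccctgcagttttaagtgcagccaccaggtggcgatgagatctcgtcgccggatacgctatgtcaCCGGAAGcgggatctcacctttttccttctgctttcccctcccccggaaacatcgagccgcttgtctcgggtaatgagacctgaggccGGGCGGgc

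The Ucp2 window held 2 GC boxes and no match to the other 5 motifs. The windows of Slc25a1, Slc25a10 and Slc25a11 held 4, 2 and 2 GC boxes and 2, 1 and 1 CCAAT boxes, and Slc25a1 also held an E box. Slc25a42 held 5 CCAAT boxes and 1 GC box, whereas Slc25a38 held 1 GC box, 1 ETS site and no CCAAT box. No base of the 6 windows lay in matches to more than 1 motif. A RefSeq promoter was matched for 35 of 45 members. The GC box was found in 30 of the 35 (85.7%), beside 35.7% of the 32851 promoters in the RefSeq table, and the CCAAT box in 16 (45.7%), beside 37.4%. The ETS site and the E box were each found in 6 of the 35 (17.1%), beside 8.86% and 7.15% of all promoters, the NRF1 core in 3 (8.57%), beside 7.76%, and the estrogen-related receptor element in 1 (2.86%), beside 4.72%. The members' windows were also richer in G and C, with a median of 60.7% beside 52.7% for all promoters in the table (not matched for in these shares).

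The cells carried the markers of their label. The 10 endothelial markers summed to 25638 CPM (reads scaled to the library total) in KO and 25826 CPM in WT at E18, and to 28428 CPM in KO and 25364 CPM in WT at E15. The markers of other cells had lower sums. The 8 mural (pericyte and smooth muscle) markers summed to 10804 CPM in KO and 8699 CPM in WT at E18, and to 4496 CPM in KO and 6840 CPM in WT at E15. These mural sums were mostly Rgs5, with 8764 CPM in KO and 6910 CPM in WT at E18, and 3401 CPM in KO and 5128 CPM in WT at E15. In KO at E18 Rgs5 stood above each endothelial marker, of which Slc2a1 was highest at 8272 CPM. The 9 erythroid markers summed to between 404 and 918 CPM, the 9 microglia and macrophage markers to between 81.8 and 610 CPM, the 7 fibroblast markers to between 147 and 309 CPM, and the 8 neuronal markers to between 46.5 and 116 CPM. Epb42 of the erythroid list and Lum of the fibroblast list had no value at E15, so the sums there leave them out. In bulk samples such as these, fewer cells of a type and less RNA per cell cannot be told apart. The E18 libraries also differed in sex-linked RNA: Xist had 547 reads in KO and 0 in WT, and Ddx3y had 0 reads in KO and 5826 in WT, so genotype and sex cannot be told apart at E18 for any gene, those on X among them. At E15 Xist had 2109 reads in KO and 2549 in WT, so stage and sex cannot be told apart in WT either.

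The summed level of the family differed little across the 4 libraries once Ucp2 was left out, although single members varied: in 17 of 44 the highest library was over 2 times the lowest. That count took no read filter and includes members with few reads, such as Slc25a32, with 7 to 64 reads. The share over all genes was not computed, so the count is not set against a background. The 44 members listed at both stages summed to 2117 CPM in KO and 2266 CPM in WT at E18, and to 2090 CPM in KO and 2218 CPM in WT at E15. Without Ucp2, the 43 others summed to 1967 CPM in KO (95% counting interval 1948 to 1985) and 1915 CPM in WT (1895 to 1934) at E18, and to 1926 CPM in KO (1905 to 1948) and 1942 CPM in WT (1920 to 1964) at E15. These exact intervals, like all others below, cover counting error only. Ucp2 made up 7.08% of the family's reads in KO (Wilson interval 6.85 to 7.32%) and 15.5% in WT (15.2 to 15.8%) at E18, and 7.81% in KO (7.53 to 8.10%) and 12.4% in WT (12.1 to 12.8%) at E15.

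**Figure D1:**
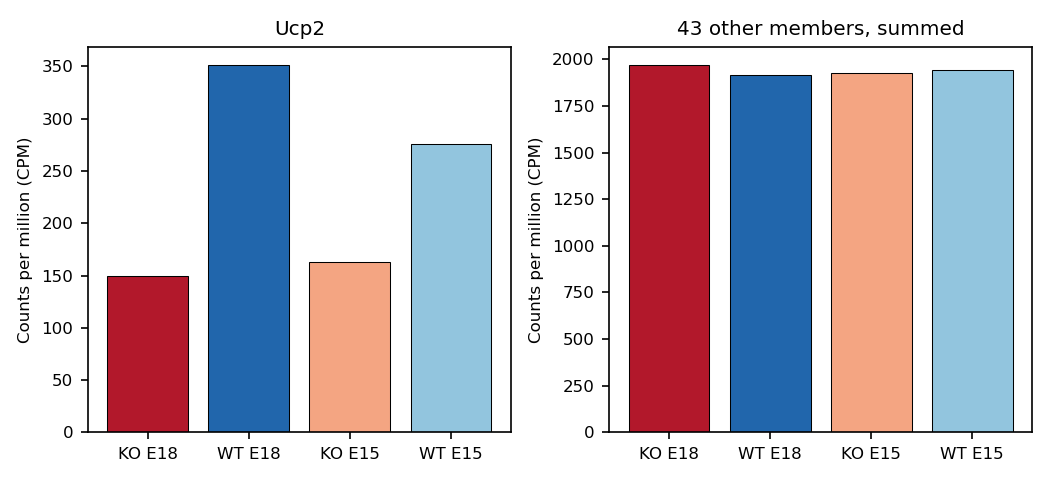
CPM of Ucp2 (left) and the summed CPM of the 43 other members listed at both stages (right), 1 bar per library. Ucp2 stood at 150 and 163 CPM in the KO libraries, against 351 and 276 CPM in the WT libraries, while the sums of the others lay between 1915 and 1967 CPM.

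Levels of different genes were compared per length, as CPM per kb of exon. On this scale the levels ranged from 0.0463 to 92.7, and a few members dominated: the 5 highest made up 57.2% of the summed level in KO and 53.5% in WT at E18, and 55.8% in KO and 53.1% in WT at E15. Slc25a11, the oxoglutarate and malate carrier, had the highest mean, with 92.7 in KO and 68.6 in WT at E18, and 82.8 in KO and 84.6 in WT at E15. It was followed by the ADP/ATP carriers Slc25a4 and Slc25a5, by the glutathione carrier Slc25a39, by the citrate carrier Slc25a1 and, in 6th place, by Ucp2. The order among Slc25a11, Slc25a4 and Slc25a5 changed between libraries, so these 3 are not separated by their spread. Ucp2 was 9th per length in KO and 5th in WT at E18, and 8th in KO and 5th in WT at E15. By reads alone, where its long annotated exons count, Ucp2 was 1st of the family in both WT libraries.

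**Figure D2:**
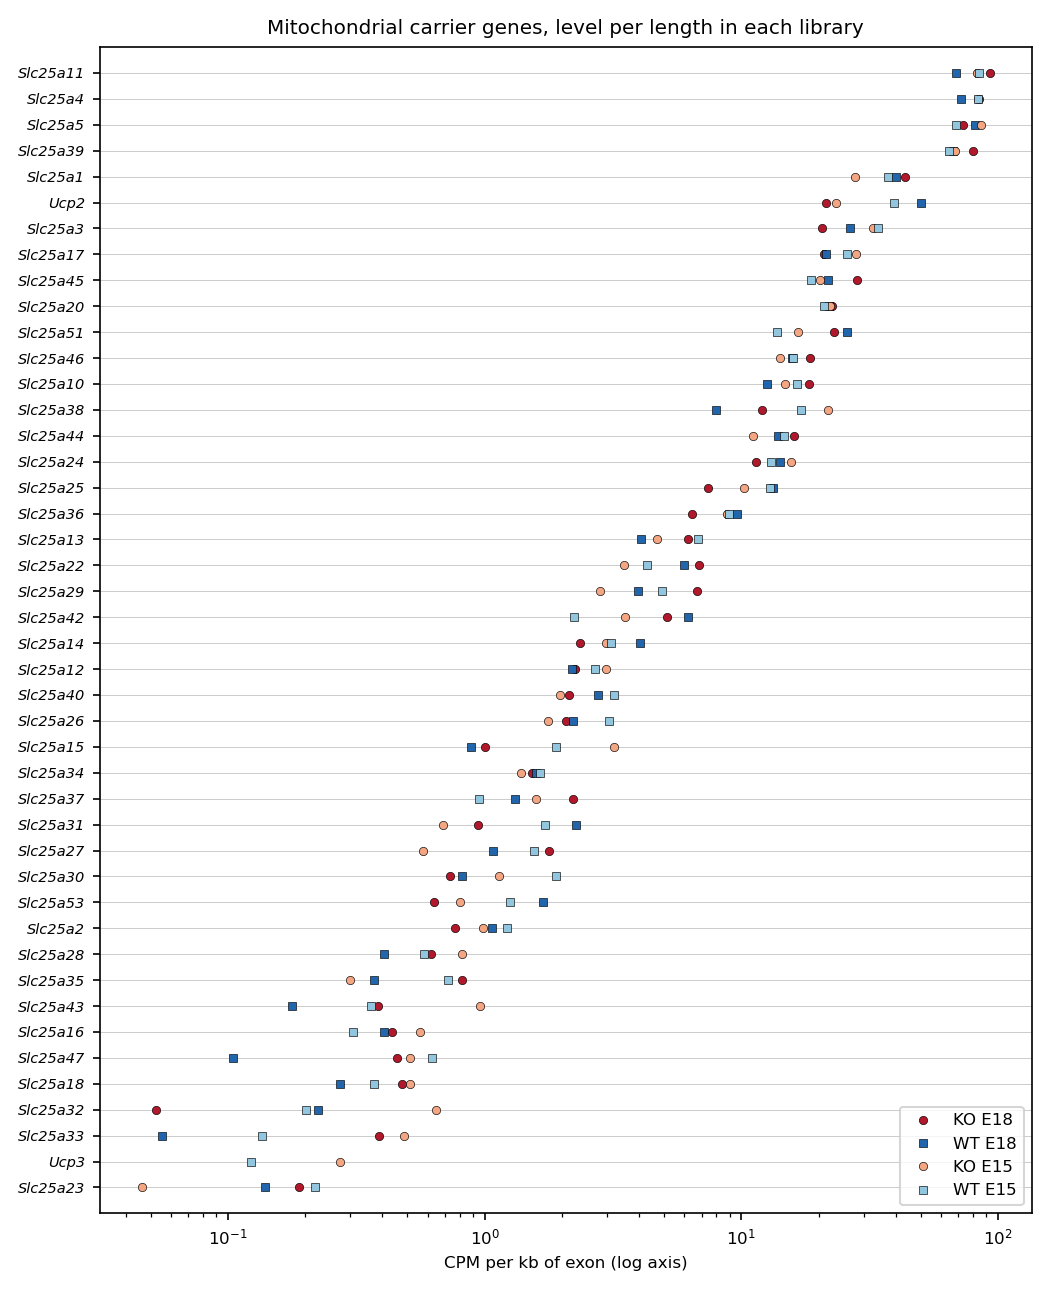
Level of 44 of the 45 members per length (CPM per kb of exon, log axis) in the 4 libraries, ordered by the mean. Slc25a11 is at the top with 92.7 in KO and 68.6 in WT at E18, and the level of Slc25a23 at the bottom reached 0.219 at most.

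At the other end stood members with few reads. Slc25a23, a calcium-regulated ATP-Mg/phosphate carrier, had 22 reads in KO and 14 in WT at E18, and 4 reads in KO and 18 in WT at E15. Ucp3, the uncoupling protein known from skeletal muscle, had 14 reads in KO and 6 in WT at E15. Slc25a33, a pyrimidine nucleotide carrier, had 16 reads in KO and 2 in WT at E18, and 15 reads in KO and 4 in WT at E15. No member was at 0 in a library that listed it. The most even member was Slc25a20, the carnitine and acylcarnitine carrier that brings fatty acids to oxidation: it had 109 CPM in KO and 106 CPM in WT at E18, and 108 CPM in KO and 102 CPM in WT at E15.

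To compare a pair of libraries, the log2 ratio of CPM was taken after adding 1 CPM to each value, so that ratios of genes with few reads are pulled towards 0. A gene entered with at least 1 CPM in one of the libraries and at least 50 reads over both, and was called at a 2-fold ratio. The interval beside a ratio is that of the counts without the pseudocount. The genotype comparison at E18 took 38 members, and 2 were called lower in KO, Ucp2 and Slc25a53, and 0 higher; of all 12349 genes that entered, 6.80% were called, 2.88% higher and 3.92% lower. At E15, 39 members entered, with 1 called higher in KO, Slc25a32, and 1 lower, Slc25a27; of 12633 genes, 6.87% were called, 3.55% higher and 3.32% lower. The members' shares of calls lay near these backgrounds. The median log2 ratio of KO over WT was 0.04 for the members and 0.00 for all genes at E18, and -0.05 for the members and -0.01 for all genes at E15.

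A test with both stages in 1 model, edgeR's quasi-likelihood F test with Benjamini-Hochberg adjustment, called 0 of 41 members for genotype; it called 3 of 13416 genes (0.0224%), with 1 residual degree of freedom among the 4 libraries. Unadjusted p lay under 0.05 for 3 of the 41 members, Ucp2, Slc25a25 and Slc25a53, all lower in KO, beside 5.12% of all genes. The log2 difference of Ucp2 was -0.99 in edgeR's fit over all genes, with an adjusted p of 0.401 (0.000434 before adjustment). Over the alternatives the adjusted p ranged from 3.98e-05, by DESeq2, to 0.643 by edgeR, and Ucp2 was the 1 member DESeq2 called, beside 47 of all genes, 8 of them lower in KO. The edgeR adjusted p was 0.882 for Slc25a25 (log2 difference -0.59) and 0.933 for Slc25a53 (-1.04). Each of the 3 was lower in KO than in WT at both stages. The model takes the stages as replicates and so favours such members, so this agreement is not separate support.

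In the uncoupling protein subgroup, Ucp2 itself was the member with by far the most reads. Ucp2 had 3296 reads in KO and 6696 in WT at E18, and 2666 reads in KO and 4285 in WT at E15, so that the KO libraries held 42.7% of the WT level at E18 and 59.2% at E15. The log2 ratio was -1.22 (interval -1.29 to -1.17) at E18 and -0.75 (-0.83 to -0.69) at E15, where it missed the 2-fold call. The tables count reads over the whole gene, so a deletion of part of it is not read out directly. Macrophages are known to express Ucp2, and Tie2-driven Cre can reach blood cells. The 9 microglia and macrophage markers summed to 147 CPM in KO and 81.8 CPM in WT at E18, with Tmem119 at 0 in WT, and to 267 CPM in KO and 610 CPM in WT at E15. The E18 sums were mostly 1 of these markers, Lyz2, with 84.7 CPM in KO and 45.1 CPM in WT. At E15 Lyz2 had 15.3 CPM in KO and 35.1 CPM in WT. Of these markers, 7 of the 8 that entered were higher in KO at E18 and 0 of 9 at E15, while Ucp2 was lower in KO at both stages; their part in the Ucp2 level was not tested.

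The relatives of Ucp2 had few reads and did not share 1 pattern. Slc25a27, known as UCP4 and as a mainly neuronal carrier, had 154 reads in KO and 81 in WT at E18, and 37 reads in KO and 95 in WT at E15, giving log2 ratios of 0.61 (0.32 to 1.13) at E18 and -1.12 (-2.02 to -0.87) at E15. The 8 neuronal markers summed to 46.5 CPM in KO and 51.4 CPM in WT at E18, and to 57.5 CPM in KO and 116 CPM in WT at E15. At E18, 2 of the 8 lay above 0, among them Map2 at 0.93 (0.75 to 1.24). Another 2 were called lower in KO at E18, and 1 of the 8 was at 0 in KO. At E15, 0 of the 7 markers that entered lay above 0 and 5 were called lower in KO. Their part in the Slc25a27 difference was not tested. Slc25a14, known as UCP5 and encoded on X, had 122 reads in KO and 182 in WT at E18, and 115 reads in KO and 114 in WT at E15, with log2 ratios of -0.69 (-1.13 to -0.44) at E18 and -0.05 (-0.44 to 0.33) at E15. Slc25a30, first described in kidney, had 74 reads in KO and 71 in WT at E18, and 85 reads in KO and 134 in WT at E15, with log2 ratios of -0.11 (-0.64 to 0.34) at E18 and -0.63 (-1.14 to -0.33) at E15.

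Of the carriers that serve ATP synthesis, the abundant ones lay within 0.36 of 0 on the log2 scale, and the sparse Slc25a31 was lower in KO at both stages. Slc25a4, which exchanges ADP for ATP and is known from heart and muscle, had 4373 reads in KO and 3213 in WT at E18, and 3204 reads in KO and 3064 in WT at E15, with log2 ratios of 0.24 (0.17 to 0.31) at E18 and -0.01 (-0.08 to 0.07) at E15. Slc25a5, its widely expressed paralog on X, had 2633 reads in KO and 2556 in WT at E18, and 2299 reads in KO and 1751 in WT at E15, with log2 ratios of -0.16 (-0.24 to -0.08) at E18 and 0.32 (0.23 to 0.41) at E15. The tables list 2 pseudogenes described as ADP/ATP translocase 2, Gm5529 and Gm6425, so the Slc25a5 reads are uncertain, though neither had over 10 reads. Slc25a31, the ADP/ATP carrier known from the germ line, had 44 reads in KO and 92 in WT at E18, and 24 reads in KO and 57 in WT at E15. Its log2 ratios were -0.96 (-1.82 to -0.74) at E18 and -0.92 (-2.07 to -0.61) at E15, on the same side at both stages. With the added 1 CPM they were just short of the 2-fold call. The CPM themselves were over 2-fold apart, at 2.00 in KO and 4.82 in WT at E18, and 1.47 in KO and 3.67 in WT at E15. Slc25a3, which imports the phosphate for ATP synthesis, had 2517 reads in KO and 2800 in WT at E18, and 2958 reads in KO and 2938 in WT at E15, with log2 ratios of -0.36 (-0.44 to -0.28) at E18 and -0.06 (-0.14 to 0.01) at E15.

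Among the ATP-Mg/phosphate carriers, which load the matrix with adenine nucleotides in response to calcium, Slc25a25 was lower in KO at both stages. It had 1285 reads in KO and 2000 in WT at E18, and 1313 reads in KO and 1572 in WT at E15, with log2 ratios of -0.83 (-0.95 to -0.74) at E18 and -0.33 (-0.44 to -0.22) at E15. Slc25a24 had 857 reads in KO and 923 in WT at E18, and 874 reads in KO and 701 in WT at E15, so its ratio lay on opposite sides of 0 at the stages, at -0.31 at E18 and 0.24 at E15. Slc25a25 shares 379 exon bases with Naif1 on the opposite strand, which had 191 reads in KO and 418 in WT at E18, and 332 reads in KO and 248 in WT at E15.

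The carriers of citrate, dicarboxylates and oxo acids, which link the citric acid cycle to the cytosol, stood together above 0 at E18, with 3 of 3 counting intervals above 0, and at or below 0 at E15. Of all genes, 32.5% had an interval above 0 at E18. Slc25a10, the dicarboxylate carrier, had 1393 reads in KO and 828 in WT at E18, and 834 reads in KO and 888 in WT at E15, with log2 ratios of 0.53 (0.42 to 0.67) at E18 and -0.16 (-0.30 to -0.02) at E15. Slc25a11 had 4322 reads in KO and 2773 in WT at E18, and 2867 reads in KO and 2787 in WT at E15, with log2 ratios of 0.43 (0.37 to 0.50) at E18 and -0.03 (-0.11 to 0.05) at E15. Slc25a1, which exports citrate for fatty acid synthesis, had 2071 reads in KO and 1649 in WT at E18, and 980 reads in KO and 1252 in WT at E15, with log2 ratios of 0.12 (0.03 to 0.22) at E18 and -0.42 (-0.55 to -0.30) at E15. None of the 3 reached 2-fold or was called for genotype by edgeR. The mural marker sum given above, which is mostly Rgs5, turned the same way between stages. Of its 8 genes, 4 lay above 0 at E18, with a median log2 ratio of -0.01, and 1 of 8 at E15, with a median of -0.71. None of the 8 was at 0 reads. Its part in these ratios was not tested. The promoters of the 3 carriers, printed above, each hold GC and CCAAT boxes. That of Slc25a42 does too, with ratios of -0.26 at E18 and 0.63 at E15. Of the members' promoters, 85.7% held a GC box and 45.7% a CCAAT box, and a link of these motifs to the ratios was not tested.

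Of the 4 aspartate and glutamate carriers, 2 lay above 0 at E18 and below 0 at E15. Slc25a13, the aspartate and glutamate exchanger citrin, had 519 reads in KO and 294 in WT at E18, and 291 reads in KO and 399 in WT at E15, with log2 ratios of 0.58 (0.41 to 0.83) at E18 and -0.50 (-0.75 to -0.30) at E15. Slc25a22, a glutamate carrier, had 898 reads in KO and 686 in WT at E18, and 342 reads in KO and 400 in WT at E15, with log2 ratios of 0.18 (0.04 to 0.33) at E18 and -0.28 (-0.51 to -0.09) at E15. Slc25a12, the second aspartate and glutamate exchanger, had intervals that held 0 at both stages, and Slc25a18 did not pass the filter.

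Carriers of other amino acids differed among themselves. Slc25a29, a carrier of basic amino acids, had 386 reads in KO and 197 in WT at E18, and 120 reads in KO and 198 in WT at E15, with log2 ratios of 0.71 (0.51 to 1.02) at E18 and -0.72 (-1.13 to -0.46) at E15. Slc25a15, the ornithine carrier of the urea cycle, had 124 reads in KO and 95 in WT at E18, and 292 reads in KO and 166 in WT at E15, with log2 ratios of 0.15 (-0.22 to 0.58) at E18 and 0.69 (0.46 to 1.03) at E15. Slc25a44, which brings branched-chain amino acids into mitochondria, had log2 ratios of 0.20 (0.08 to 0.33) at E18 and -0.40 (-0.56 to -0.26) at E15. Slc25a2 had between 22 and 28 reads in each library.

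The iron, glycine and glutathione carriers, which supply heme and iron-sulfur cluster synthesis and the matrix glutathione pool, lay mostly above 0. Slc25a37, mitoferrin 1, which imports iron and is known for its role in red cell precursors, had 293 reads in KO and 151 in WT at E18, and 156 reads in KO and 89 in WT at E15, with log2 ratios of 0.68 (0.46 to 1.04) at E18 and 0.65 (0.35 to 1.13) at E15. Slc25a38, the glycine carrier needed for heme synthesis, had 723 reads in KO and 418 in WT at E18, and 973 reads in KO and 729 in WT at E15, with log2 ratios of 0.56 (0.41 to 0.76) at E18 and 0.34 (0.21 to 0.49) at E15. Slc25a39, a glutathione carrier, had 4827 reads in KO and 3498 in WT at E18, and 3051 reads in KO and 2751 in WT at E15, with log2 ratios of 0.26 (0.20 to 0.32) at E18 and 0.08 (0.00 to 0.15) at E15. Its paralog Slc25a40 went the other way, with log2 ratios of -0.36 (-0.58 to -0.18) at E18 and -0.67 (-0.93 to -0.48) at E15. Erythroid cells express the heme and iron carriers at high levels. The 9 erythroid markers summed to 723 CPM in KO and 918 CPM in WT at E18. Without Epb42, which had no value at E15, they summed to 514 CPM in KO and 404 CPM in WT at E15. Of those that entered, 3 of 8 were above 0 at E18 and 4 of 7 at E15, so that at E18 the sum was lower in KO while Slc25a37 and Slc25a38 were higher. The 6 mast cell and neutrophil markers summed to 39.3 CPM in KO and 4.77 CPM in WT at E18, and, without Tpsb2, which was not analysed at E15, to 15.1 CPM in KO and 0.965 CPM in WT at E15, with 5 of the 5 that entered called higher in KO at E18 and 2 of 2 at E15. At 0 reads were Cpa3, Cma1 and Tpsb2 in WT at E18, and Cma1 and S100a8 in WT at E15. The part of either marker list in these ratios was not tested.

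Of the 9 nucleotide and cofactor carriers, 1 of the 7 that entered lay above 0 at E18 and 6 of the 8 that entered at E15. Slc25a51, which brings NAD+ into mitochondria, had 2778 reads in KO and 2719 in WT at E18, and 1492 reads in KO and 1180 in WT at E15, with log2 ratios of -0.17 (-0.25 to -0.10) at E18 and 0.26 (0.16 to 0.38) at E15. Slc25a42, the coenzyme A carrier, had 679 reads in KO and 710 in WT at E18, and 345 reads in KO and 207 in WT at E15, with log2 ratios of -0.26 (-0.42 to -0.12) at E18 and 0.63 (0.41 to 0.92) at E15. Slc25a36, a pyrimidine nucleotide carrier, had log2 ratios of -0.57 (-0.68 to -0.48) at E18 and -0.02 (-0.13 to 0.09) at E15. Slc25a32, a folate and FAD carrier, was the member called higher in KO at E15, with 64 reads in KO and 19 in WT and a log2 ratio of 1.15 (0.92 to 2.50); at E18, where it did not enter, it had 7 reads in KO and 26 in WT. Slc25a26, which imports the methyl donor S-adenosylmethionine, had 219 reads in KO and 203 in WT at E18, and 138 reads in KO and 229 in WT at E15, with log2 ratios of -0.09 (-0.38 to 0.19) at E18 and -0.74 (-1.12 to -0.49) at E15. Slc25a16 reached 0.58 (0.11 to 1.66) at E15 from 44 reads in KO and 23 in WT.

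Of the members without an assigned role here, Slc25a53 stood out. This gene on X had 111 reads in KO and 257 in WT at E18, and 104 reads in KO and 156 in WT at E15, with log2 ratios of -1.26 (-1.75 to -1.09) at E18 and -0.58 (-1.03 to -0.29) at E15. The sex-linked difference given above applies to its E18 value; at E15, where Xist was present in both libraries, the ratio was on the same side but short of 2-fold. Without the members on X, 1 member, Ucp2, was called at E18, an alternative chosen after seeing the data. Slc25a35, whose reads are uncertain, had log2 ratios of 0.76 (0.46 to 1.85) at E18 and -0.79 (-2.15 to -0.43) at E15. Slc25a45 had 0.37 (0.27 to 0.49) at E18 and 0.12 (-0.02 to 0.26) at E15. Slc25a46, an outer membrane relative with a role in fission, forms a role group of its own. It had 0.23 (0.14 to 0.32) at E18 and -0.17 (-0.28 to -0.06) at E15.

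The remaining members differed little or had few reads. Slc25a17, Slc25a20 and Slc25a34 had log2 ratios between -0.20 and 0.11 at both stages, and Slc25a28, mitoferrin 2, had 0.40 at E18 and 0.35 at E15 with intervals that held 0. Slc25a18, Slc25a23, Slc25a33 and Slc25a43 entered neither comparison, Ucp3 was listed at E15 alone and did not enter, and Slc25a2 entered at E18 alone. Slc25a47 entered at E15 alone; it had 30 reads in KO and 6 in WT at E18, and 25 reads in KO and 29 in WT at E15. Slc25a43, on X beside Slc25a5, had 15 reads in KO and 6 in WT at E18, and 28 reads in KO and 10 in WT at E15.

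**Figure D3:**
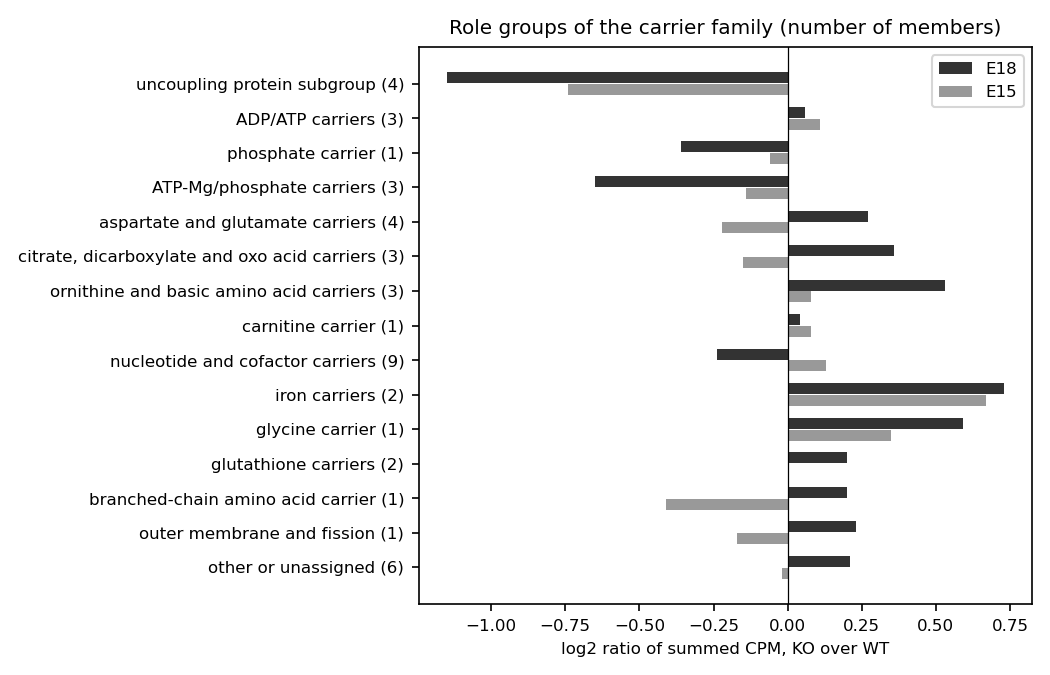
The log2 ratio, KO over WT, of the summed CPM of each role group at E18 and E15, with the number of members listed at both stages. The uncoupling protein subgroup lay at -1.15 at E18 and -0.74 at E15, a sum that is mostly Ucp2 (-0.14 at E18 and -0.60 at E15 without it), and the citrate, dicarboxylate and oxo acid group lay at 0.36 at E18 and -0.15 at E15.

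Set side by side over the 37 members that entered at both stages, the genotype ratios at E18 and E15 were almost unrelated. Pearson's r was 0.17 and Spearman's rho 0.09 over the 37 members, 0.09 and 0.03 without Ucp2, and 0.04 and 0.04 over 11784 genes; the points share their libraries, and no p-value is given. In 8 of the 37 both intervals lay on the same side of 0, beside 21.6% of all genes, and in 13 they lay on opposite sides, beside 18.5%. The 8 were Ucp2, Slc25a25, Slc25a31, Slc25a40 and Slc25a53, lower in KO (5 members, beside 11.1% of all genes), and Slc25a37, Slc25a38 and Slc25a39, higher in KO (3 members, beside 10.5%). Intervals narrow as reads increase, so a share of this kind depends on expression level.

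**Figure D4:**
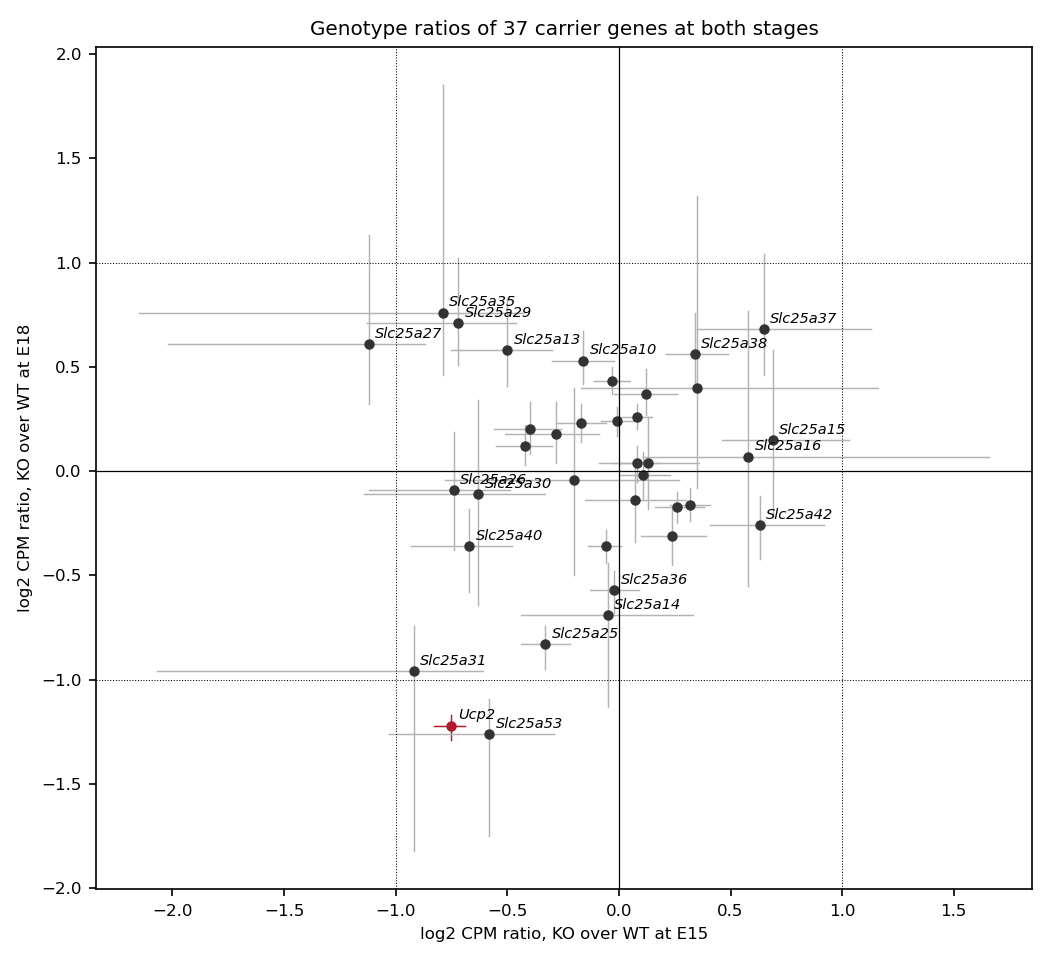
The log2 ratio of KO over WT at E15 (x axis) and at E18 (y axis) for the 37 members that entered both comparisons, with counting intervals as lines, the 2-fold limits dotted and Ucp2 in red. Ucp2 lay at -1.22 at E18 and -0.75 at E15, in the lower left with Slc25a53 and Slc25a31, and 13 members had intervals on opposite sides of 0.

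Between stages, few members reached the 2-fold call in either genotype. In KO, 39 members entered, with 2 called higher at E18, Slc25a27 and Slc25a29, and 2 lower, Slc25a15 and Slc25a32; of 12465 genes, 15.3% were called, 4.34% higher and 10.9% lower. In WT, 38 members entered, with 1 called higher at E18, Slc25a42, and 2 lower, Slc25a38 and Slc25a30; of 12515 genes, 10.7% were called, 3.08% higher and 7.58% lower. The median of all genes was -0.10 in KO and -0.11 in WT on library totals, and 0.01 in KO and 0.00 in WT with edgeR's TMM scaling, so ratios between stages are about that much lower here than relative to the typical gene. With TMM scaling the calls were 4 higher and 2 lower in KO, beside 1844 of 12465 genes, and 2 higher and 0 lower in WT, beside 1261 of 12515 genes. The median of the members was 0.02 in KO and -0.02 in WT.

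Slc25a42 had 679 reads in KO at E18 and 345 in KO at E15, and 710 reads in WT at E18 and 207 in WT at E15. The log2 ratio of E18 over E15 was 0.53 (0.36 to 0.74) in KO and 1.42 (1.26 to 1.71) in WT. Slc25a51 had 2778 reads in KO at E18 and 1492 in KO at E15, and 2719 reads in WT at E18 and 1180 in WT at E15, with log2 ratios of 0.46 (0.38 to 0.56) in KO and 0.90 (0.81 to 1.01) in WT; with TMM scaling it reached 1.02 in WT. Both cofactor carriers were thus higher at E18 in both genotypes.

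Slc25a38 had 723 reads in KO at E18 and 973 in KO at E15, and 418 reads in WT at E18 and 729 in WT at E15, with log2 ratios of -0.84 in KO, where the interval lay below 0, and -1.06 (-1.27 to -0.92) in WT. Slc25a15 was lower at E18 in both, at -1.51 (-1.98 to -1.36) in KO and -0.97 (-1.48 to -0.73) in WT. Slc25a3 was also lower at E18, at -0.66 in KO and -0.36 in WT, and Slc25a30 at -0.51 in KO and -1.03 in WT. The erythroid marker sum ran the other way from Slc25a38, at 723 CPM in KO at E18 and 514 CPM in KO at E15, and at 918 CPM in WT at E18 and 404 CPM in WT at E15. The E18 sums include Epb42, at 1.64 CPM in KO and 0.891 CPM in WT, which had no value at E15. Of the erythroid markers that entered, 4 of 7 lay above 0 in KO and 6 of 7 in WT. Their part in the Slc25a38 ratios was not tested.

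In KO, Ucp2 had 150 CPM at E18 and 163 CPM at E15, a log2 ratio of -0.12 (-0.20 to -0.05), or -0.01 with TMM scaling. In WT it had 351 CPM at E18 and 276 CPM at E15, a log2 ratio of 0.35 (0.29 to 0.40), or 0.47 with TMM scaling. Slc25a22 was higher at E18 in both, at 0.93 (0.78 to 1.15) in KO and 0.47 (0.30 to 0.66) in WT, and Slc25a37 at 0.44 in KO and 0.41 in WT. Slc25a27, Slc25a29, Slc25a35 and Slc25a13 were higher at E18 in KO and lower in WT: Slc25a27 had 1.29 (1.10 to 2.19) in KO and -0.44 (-0.97 to -0.08) in WT, and Slc25a29 had 1.15 (0.96 to 1.56) in KO and -0.28 (-0.59 to -0.01) in WT. The neuronal markers summed to 46.5 CPM in KO at E18 and 57.5 CPM in KO at E15, lower at E18 where Slc25a27 was higher. Of the 6 neuronal markers that entered in KO, 2 lay above 0, among them Map2, called higher at E18 at 1.32. Their part in the Slc25a27 ratio was not tested. Slc25a35 had 0.93 (0.68 to 2.28) in KO and -0.62 (-1.72 to -0.21) in WT, and Slc25a13 had 0.39 (0.20 to 0.62) in KO and -0.70 (-0.96 to -0.52) in WT. The stage ratio in KO minus that in WT equals the genotype ratio at E18 minus that at E15. Such a contrast is therefore not separate from the genotype ratios above. Slc25a53, on X, had -0.29 (-0.73 to 0.06) in KO and 0.39 (0.13 to 0.72) in WT. Slc25a1 had 0.64 (0.54 to 0.76) in KO, and the interval in WT held 0. Slc25a32 fell to 7 reads in KO at E18, against 64 in KO at E15, a log2 ratio of -1.90 (-4.99 to -2.50 for the counts without the pseudocount).

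Over the 37 members that entered in both genotypes, 11 had intervals on the same side of 0, beside 39.5% of all genes, 5 of them higher at E18 (13.4%) and 6 lower (26.1%). Another 9 lay on opposite sides, beside 11.9% of all genes. This count and that of opposite genotype ratios come from the same libraries, so neither is separate support for the other. Pearson's r between the stage ratios in KO and WT was 0.30 over the members and 0.46 over 11997 genes, and Spearman's rho was 0.20 and 0.43. The edgeR quasi-likelihood test of stage, adjusted by Benjamini-Hochberg, called 0 of 41 members and 180 of 13416 genes (1.34%). Unadjusted p was under 0.05 for 8 members, beside 16.7% of all genes. The lowest edgeR adjusted p was 0.0766, for Slc25a51 (log2 difference 0.81), ranging from 0.00695 to 0.115 over the alternatives; it was the 1 member DESeq2 called for stage, beside 719 of all genes. Slc25a38 followed with an edgeR adjusted p of 0.0884 (log2 difference -0.86) and Slc25a42 with 0.116 (1.13).

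**Figure D5:**
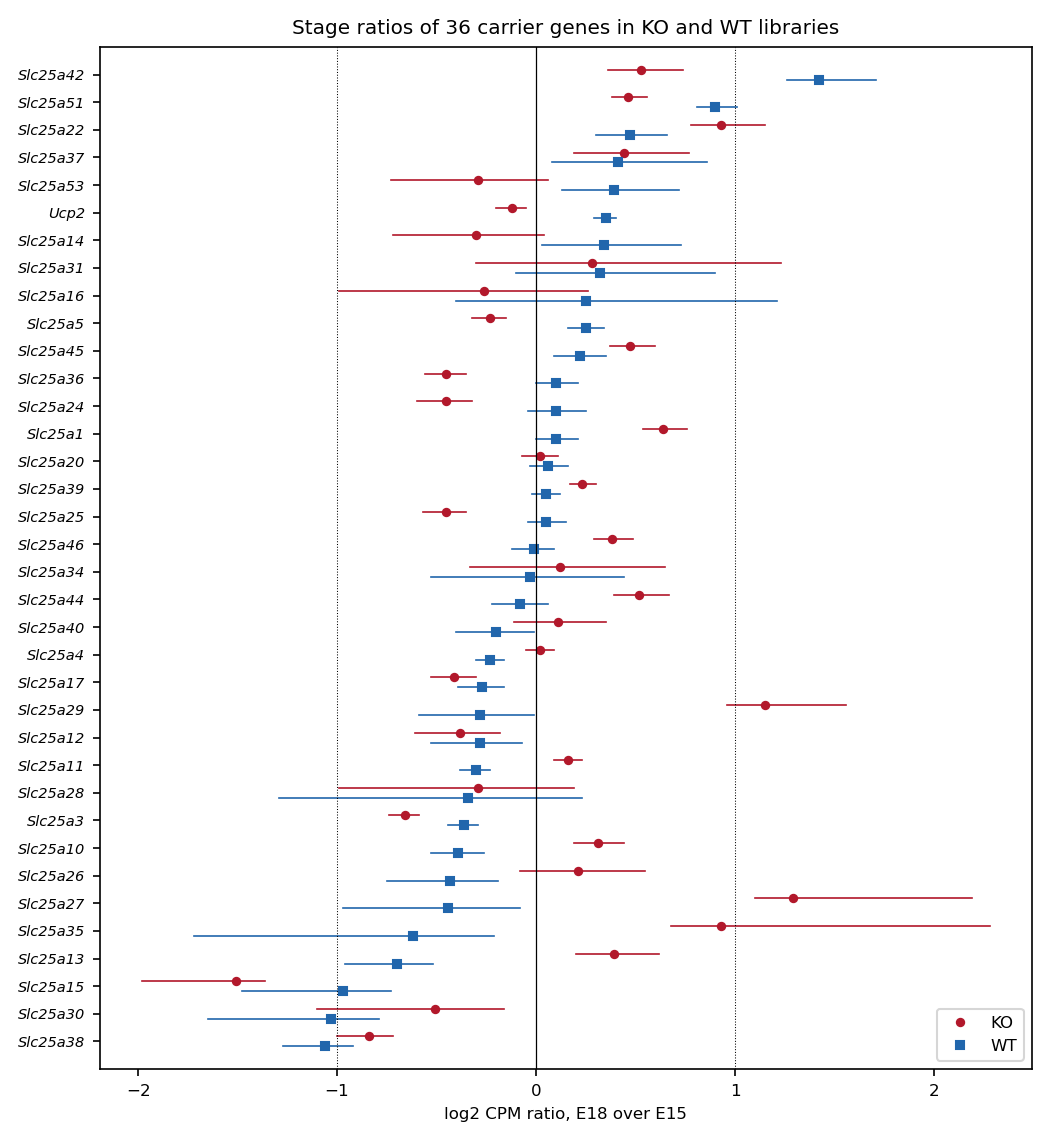
The log2 ratio of E18 over E15 in KO (circles) and WT (squares) for 36 of the 37 members that entered both comparisons, with counting intervals as lines and the 2-fold limits dotted, ordered by the ratio in WT. Slc25a42 stands at the top with 0.53 in KO and 1.42 in WT, and Slc25a38 at the bottom with -0.84 in KO and -1.06 in WT.

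Genes that work with the carriers were read from lists. Of the 7 regulators of mitochondrial biogenesis, 6 entered, and 1 was called lower in KO at each stage: Ppargc1b, a coactivator that raises mitochondrial gene expression, had 103 reads in KO and 223 in WT at E18, and 64 reads in KO and 174 in WT at E15, with log2 ratios of -1.16 (-1.67 to -0.98) at E18 and -1.31 (-1.95 to -1.09) at E15. The regulators Nrf1, Gabpa, Tfam, Esrra and Pprc1 were within 2-fold in both genotype comparisons. Of the 10 listed genes that import carriers into the inner membrane, 9 entered; 0 were called at E18 and 1 at E15, Timm29, a subunit of the carrier translocase, with 336 reads in KO and 176 in WT at E18, and 1147 reads in KO and 433 in WT at E15. Tomm70a, the outer membrane receptor for carrier precursors, had 402 reads in KO and 348 in WT at E18, and 1054 reads in KO and 496 in WT at E15. Of the relatives that carry the same domain but lie outside the name rule, Mtch2, an outer membrane protein, was called lower in KO at E18, with 45 reads in KO and 186 in WT, against 238 reads in KO and 175 in WT at E15, and Mtch1 was not called. The pyruvate carrier genes Mpc1 and Mpc2, an unrelated family, and the outer membrane channels Vdac1, Vdac2 and Vdac3 were not called in either genotype comparison.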

How the data were processed

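Per the file headers, the authors deposited raw read counts per Ensembl gene for 1 KO and 1 WT library at each stage, beside their own CPM values (reads scaled to the library total). Tools named in the submitters' processing notes, with no role, are TopHat2 2.0.12, Bowtie2 2.2.3 and HTSeq 0.6.0, with the build mm9; whether strand was used in counting is not stated there. Of 20159 identifiers found in GENCODE M21, 90.1% had an identical start and end, so coordinates were read as GRCm38.

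Counts were scaled here to the library totals over all listed genes. Ratios took a pseudocount of 1 CPM, a filter of 1 CPM and 50 reads, and a 2-fold call; their intervals are exact Clopper-Pearson at 95%. Levels per length used the union of exons. The model of stage and genotype used edgeR 4.0.16 (TMM, at least 1 CPM in 2 libraries, adjusted p under 0.05), with DESeq2 1.42.0 as an alternative, in R 4.3.3. Both procedures were run on simulated data. The simulated libraries varied less than these libraries did, so those runs do not measure the error rates here.

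The members and lists were chosen with earlier results of these data known. Values are given for the uncoupling and ADP/ATP carriers, the 10 members with the most reads, every called member, the 5 highest and 5 lowest ratios of each comparison and the leading member of a role group; further members were named after their values were seen. The values of 1 member are not reported here; it is kept in counts and sums.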

Additional observations from a re-analysis of the deposited data

Results flagged for a closer look

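For 13 members, the KO to WT ratio lay above 0 at one stage and below 0 at the other, with both counting intervals away from 0, out of 37 that entered at both stages and beside 18.5% of all genes. With 1 library per group the difference between stages was not tested. The values are the log2 ratio of KO over WT at E18 minus that at E15. Each value is also the log2 stage ratio in KO minus that in WT, so the stage ratios above are not a separate observation. The value was positive, so that KO stood higher relative to WT at E18 than at E15, for 9 members. Among the amino acid carriers it was 1.43 for Slc25a29, 1.09 for Slc25a13, 0.60 for Slc25a44 and 0.46 for Slc25a22. The organic acid carriers Slc25a10 and Slc25a1 had 0.69 and 0.54. It was 1.73 for Slc25a27, the relative of Ucp2 known from neurons, 1.55 for Slc25a35, whose reads are uncertain, and 0.39 for Slc25a46. The value was negative for 4 members: -0.89 for the coenzyme A carrier Slc25a42, -0.55 for the ATP-Mg/phosphate carrier Slc25a24, -0.48 for the ADP/ATP carrier Slc25a5 and -0.44 for the NAD+ carrier Slc25a51. The mural markers, a sum that is mostly Rgs5, summed to 10804 CPM in KO and 8699 CPM in WT at E18, and to 4496 CPM in KO and 6840 CPM in WT at E15. Their part in these values was not tested.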

How the results depend on the processing

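The counts of members called were 2 at E18 and 2 at E15 between genotypes, and 4 in KO and 3 in WT between stages. With a pseudocount of 5 CPM they became 1, 0, 1 and 1, since the larger pseudocount pulls ratios of weak genes towards 0. These stood beside 124 of 12349, 238 of 12633, 779 of 12465 and 429 of 12515 genes. With 0.5 CPM they became 3, 3, 5 and 4, beside 1066 of 12349, 1051 of 12633, 2146 of 12465 and 1554 of 12515 genes. A filter at 5 CPM left 1 member called at E15, beside 584 of 10617 genes. Leaving out members on X, an alternative chosen after seeing the data, left 1 at E18. DESeq2 called 1 member for genotype and 1 for stage where edgeR called 0, beside 47 and 719 of all genes. No member changed sign under TMM scaling between genotypes; 3 did in the WT stage comparison, Slc25a46, Slc25a34 and Slc25a44, all within 0.12 of 0 on log2. No paired analysis was possible because each group has 1 library and no groups share more than 1 replicate number in the labels; the model of stage and genotype does compare genotypes within stage. Leaving out a library removes its group. Members under the 50-read filter, such as Slc25a23, Slc25a33 and Slc25a43, were too shallow to compare.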
